A study of Mus musculus with 9 samples.

Results

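The pluripotency-related factors are 10 genes, out of 46078 counted, that were taken by name: Pou5f1, Sox2, Sox3, Nanog, Klf4, Lin28a, Lin28b, Zfp42, Utf1 and Tcl1. Their RNA was followed in EGFP-SSCs, a wild-type mouse spermatogonial stem cell line that carries green fluorescent protein, over 48 h of differentiation. The 3 libraries of 0 h came from the line in normal culture, on mitomycin C-treated mouse embryonic fibroblasts in medium with GDNF, bFGF and EGF. The 3 libraries of 24 h and the 3 of 48 h came from the same line, mixed with an equal number of somatic cells from busulfan-exposed testes of pups aged 3 to 7 days, in medium with retinoic acid, BMP-4/7, activin A, testosterone, FSH and BPE, after which the EGFP-positive cells were sorted. All 9 libraries are of 1 line. Between 0 h and the later time points, time, medium and co-culture changed together, so that their effects cannot be told apart. The 24 h and 48 h libraries shared the medium and the co-culture, and differed in time.

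POU5F1 (OCT4), SOX2 and NANOG are transcription factors at the core of the network that keeps embryonic stem cells pluripotent, and KLF4 joins POU5F1 and SOX2 in reprogramming somatic cells. Germ cells share a part of this network: primordial germ cells and undifferentiated spermatogonia express Pou5f1 and Lin28a, and a cultured line of spermatogonial stem cells depends on GDNF and FGF signals to stay undifferentiated. SOX3 belongs with SOX2 to the SOXB1 group and is expressed in spermatogonia, LIN28A and LIN28B bind RNA and block the maturation of let-7 microRNAs, ZFP42 (REX1) and UTF1 are chromatin-associated markers of pluripotent cells, and TCL1 is a coactivator of the AKT kinases.

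The start sites of 9 of the 10 genes had an entry in RefSeq (GRCm38.p6), each a window from 250 bases before to 50 bases after the start. The 4 printed here belong to the 3 members that had fallen by 24 h, Pou5f1, Sox2 and Tcl1, and to Zfp42, whose window holds an octamer. Capitals mark exact matches, on either strand, to 4 short motifs: the octamer ATGCAAAT bound by POU factors, the SOX core CATTGT, the nuclear receptor half-site AGGTCA, of the kind that retinoic acid receptors bind, and the GC box GGGCGG. No match overlaps another in these 4 windows. The Pou5f1 window is chr17:35505782-35506081 on the plus strand, the Sox2 window chr3:34649745-34650044 on the plus strand, the Tcl1 window chr12:105222688-105222987 on the minus strand and the Zfp42 window chr8:43306960-43307259 on the minus strand.
Pou5f1: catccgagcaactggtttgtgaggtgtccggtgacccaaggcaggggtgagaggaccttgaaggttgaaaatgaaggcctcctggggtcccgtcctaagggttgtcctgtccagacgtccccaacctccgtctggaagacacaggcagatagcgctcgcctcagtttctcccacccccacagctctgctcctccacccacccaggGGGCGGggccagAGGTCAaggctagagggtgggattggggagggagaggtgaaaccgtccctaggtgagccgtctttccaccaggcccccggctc
Sox2: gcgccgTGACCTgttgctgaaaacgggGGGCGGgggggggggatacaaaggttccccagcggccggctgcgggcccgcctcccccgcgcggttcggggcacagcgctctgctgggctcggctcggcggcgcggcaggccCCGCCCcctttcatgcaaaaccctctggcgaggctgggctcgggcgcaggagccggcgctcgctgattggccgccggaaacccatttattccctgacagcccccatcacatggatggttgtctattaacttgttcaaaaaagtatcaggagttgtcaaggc
Tcl1: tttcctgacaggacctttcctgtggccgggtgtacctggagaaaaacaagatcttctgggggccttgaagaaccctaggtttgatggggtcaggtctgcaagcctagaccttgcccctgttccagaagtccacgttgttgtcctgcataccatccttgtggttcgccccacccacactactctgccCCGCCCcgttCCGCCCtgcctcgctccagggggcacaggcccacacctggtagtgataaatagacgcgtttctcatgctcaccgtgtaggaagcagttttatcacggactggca
Zfp42: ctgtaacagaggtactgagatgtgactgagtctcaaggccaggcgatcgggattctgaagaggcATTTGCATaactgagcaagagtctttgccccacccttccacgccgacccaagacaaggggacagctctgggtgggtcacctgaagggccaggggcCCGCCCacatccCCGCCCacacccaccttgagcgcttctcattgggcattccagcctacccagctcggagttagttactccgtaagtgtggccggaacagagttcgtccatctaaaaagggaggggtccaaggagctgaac

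The octamer was in 1 of the 9 windows, that of Zfp42, where it starts 186 bases before the start site, and in 1.74% of all 32851 windows. In Pou5f1, the half-site AGGTCA starts 33 bases before the start site and 12 bases after the beginning of a GC box. This half-site was in 3 of the 9 windows (Pou5f1, Sox2 and Nanog) and in 16.3% of all. The SOX core was in the windows of Nanog and Lin28a, and in 12.6% of all. GC boxes were in 7 of the 9, and in 35.7% of all. The RefSeq start of Sox2 lies 410 bases from the start in GENCODE release M21, and that of Lin28b 16194 bases. These matches are letters in a window, and binding was not measured.

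Each library held 16825251 to 22201892 counts, the numbers of reads assigned to genes, which the authors deposited without normalization. The unit of level is CPM, a gene's counts brought to a common library size by TMM scaling across all 9. A gene with up to 3 counts, or 0.13 to 0.187 CPM, is taken as at the floor. The 10 germ cell markers of the label check all passed the expression filter, with summed levels of 2410 to 3383 CPM at 0 h, 1866 to 2091 at 24 h and 1887 to 2134 at 48 h. Single markers did not all follow this sum, and 7 of the 10 were not called at 24 h and 4 at 48 h. Ddx4 had means of 358, 360 and 382 CPM in time order, Mael 208, 222 and 232, and Tdrd1 197, 211 and 239, none called against 0 h. Etv5 fell from a mean of 524 CPM at 0 h to 11.3 at 24 h, and Gfra1 from 230 to 36.4. In the 0 h libraries Dazl alone was at 1351, 831 and 421 CPM. Markers of somatic cells moved with time as well. Those of myoid, stromal and fibroblast cells cover testis and feeder cells. The 0 h cultures held fibroblast feeders and no co-cultured testis cells, and the source of this RNA was not tested. The 8 myoid, stromal and fibroblast markers summed to 264 to 360 CPM at 0 h, 2190 to 2535 at 24 h and 3004 to 3306 at 48 h. At each later time 7 were called higher, 87.5% of the 8, beside 11.4% of all genes tested at 24 h and 13.0% at 48 h. The 6 Sertoli cell markers summed to 14.3 to 18.3, 34.4 to 48.5 and 41.8 to 45.5 CPM, and the 5 Leydig cell markers to 4.39 to 6.80, 24.6 to 38.6 and 25.2 to 32.6 CPM. Of the 5 Sertoli markers tested, 4 were called higher at 24 h and Sox9, named after its values were seen, lower (-0.80, SE 0.19, adjusted p = 0.0175), and the 48 h fit called 4 higher. Of the 3 Leydig markers tested, 2 were called higher at 24 h and 3 at 48 h. The calls were 100% and 80% of the Sertoli markers tested and 66.7% and 100% of the Leydig markers. Among all genes, 25.5% and 31.6% were called in either direction. At 0 h, 1 or 2 of the Sertoli markers and 2 of the Leydig markers had no count, and later 0 or 1 and 0. The 0 h libraries also differed from each other along GC content: among genes under 45% GC the median deviation from the group mean was 0.37 on the log2 scale in replicate 1 and -0.42 in replicate 3, against -0.24 and 0.20 among genes over 55% GC. In bulk RNA of sorted cells, fewer cells that express a gene and less of its RNA per cell cannot be told apart.

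Of the 10 members, 9 passed the expression filter in every comparison and Nanog in none. At 24 h against 0 h, Sox3 was called higher and Pou5f1, Sox2 and Tcl1 lower, 4 of the 9 tested, where 25.5% of all 17592 genes tested were called, 11.4% higher and 14.2% lower. At 48 h against 0 h, 7 of the 9 were called, against 31.6% of all 17755 genes (13.0% higher, 18.5% lower): Sox3 and Utf1 higher, and Pou5f1, Sox2, Lin28a, Zfp42 and Tcl1 lower. Between 24 h and 48 h, Lin28b and Utf1 were called higher and Pou5f1 and Lin28a lower, again 4 of 9, against 21.3% of all 17499 genes (8.61% higher, 12.7% lower). Calls are those of edgeR's quasi-likelihood test at a Benjamini-Hochberg adjusted p of up to 0.05 over all genes tested. The median log2 fold change of the 9 was -0.30 at 24 h and -0.55 at 48 h against 0 h, where the medians of all genes were 0.01 and 0.02. Each pair of these comparisons shares the libraries of 1 time point.

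**Figure D1:**
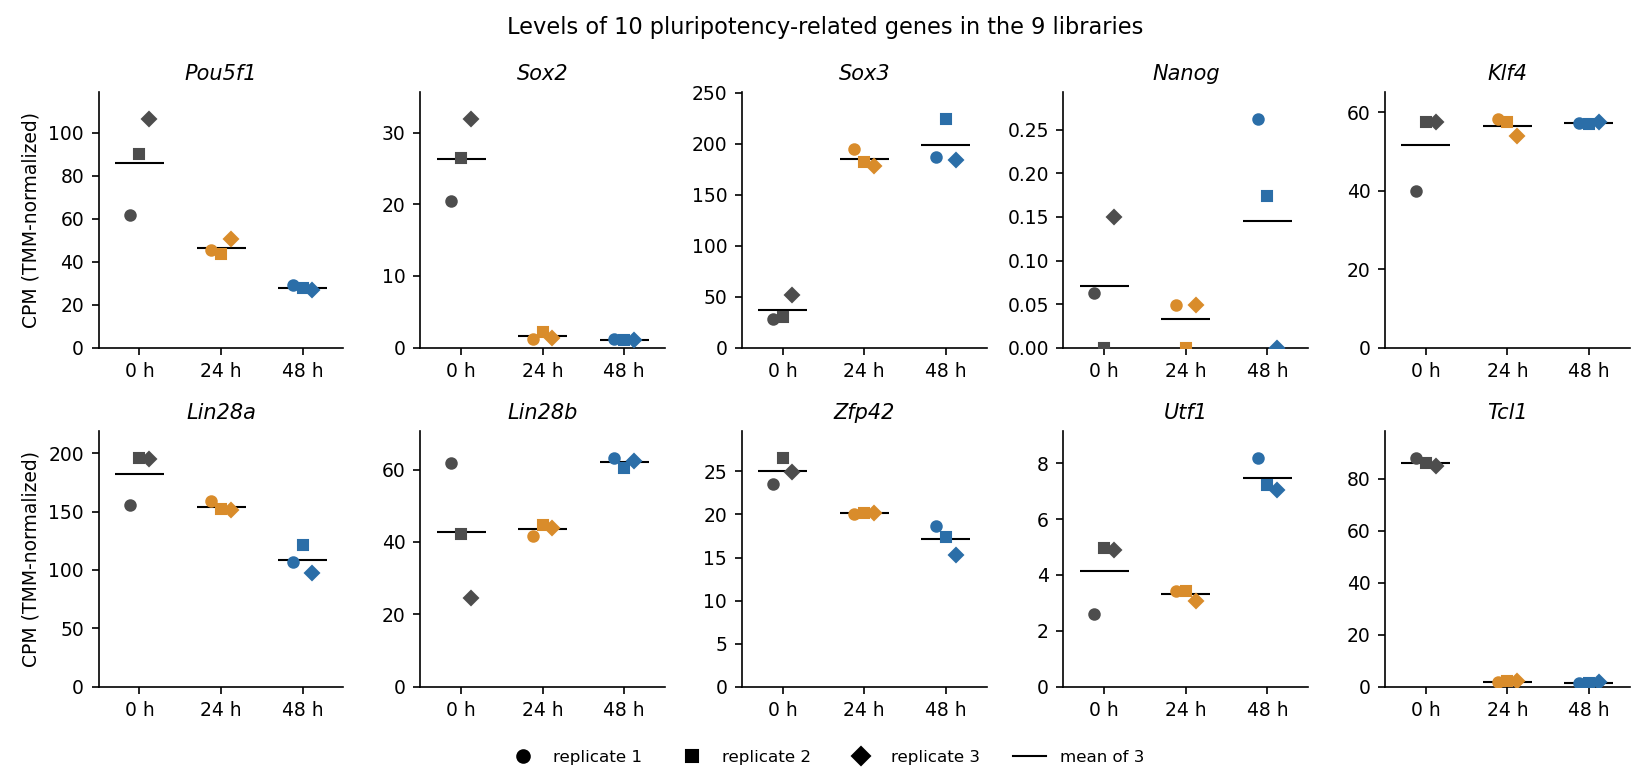
CPM (vertical axis, from 0, with a scale of its own in each panel) of each of the 10 genes at 0 h, 24 h and 48 h (horizontal axis). Each point is 1 library, its shape the replicate number, and each line the mean of 3; Tcl1 and Sox2 drop between 0 h and 24 h, Sox3 climbs over the same day, and Utf1 and Lin28b are higher at 48 h than at 24 h.

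**Figure D2:**
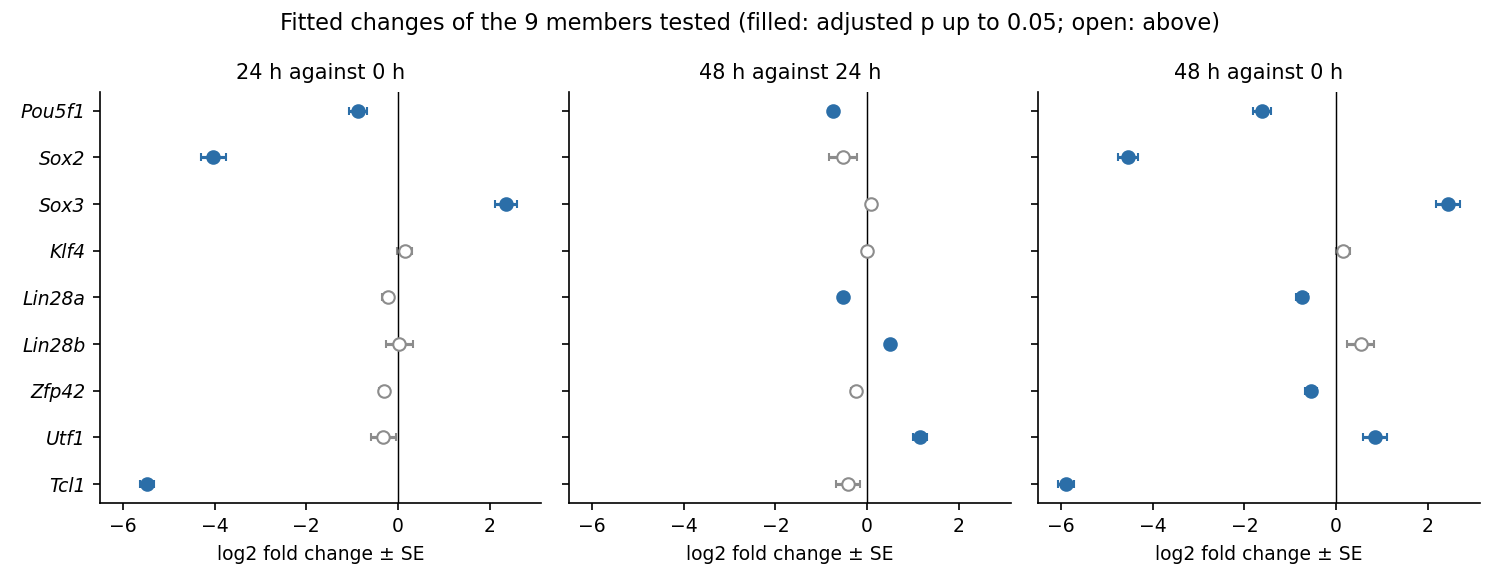
Fitted log2 fold change (horizontal axis, later against earlier time point) with its standard error for the 9 members tested, in the 3 comparisons. Filled points are called and open points are not; the span runs from -5.89 for Tcl1 to 2.44 for Sox3, both at 48 h against 0 h.

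Pou5f1 (ENSMUSG00000024406, chromosome 17, 35506018 to 35510772) fell at both steps. Its levels were 61.8, 89.8 and 106 CPM in the 0 h libraries, 45.5, 43.6 and 50.3 CPM at 24 h, and 29.0, 27.9 and 26.7 CPM at 48 h. Each time point lay below the one before without overlap, and the spread was widest at 0 h. The transcript of Pou5f1 has 57.6% GC, and its order over the 0 h replicates followed the shift of genes over 55% GC. The log2 fold change was -0.87 (SE 0.19, adjusted p = 0.0151) from 0 h to 24 h, -0.75 (SE 0.08, adjusted p = 0.000464) from 24 h to 48 h, and -1.62 (SE 0.20, adjusted p = 0.000891) over both days. At 24 h the level had thus covered 53.8% of the log2 distance to its 48 h value, and a test of the second day's change against the first day's gave a difference of 0.15 (SE 0.30, adjusted p = 0.807). The call at 24 h was lost in 4 of the 6 fits that left out 1 library, without 0 h replicate 2 or any 1 of the 24 h libraries, where the fold change stayed between -0.92 and -0.82. The 8 alternatives that kept every library, GC and length offsets among them, kept all calls of Pou5f1. In these the fold change was -0.89 to -0.76 at 24 h, -0.75 to -0.54 from 24 h to 48 h, and -1.63 to -1.38 over both days. The antisense gene Gm19553 shares 317 bases, 14.1%, of the exons of Pou5f1, and was at 0 to 2 counts in every library.

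The SOXB1 genes went in opposite directions. Sox2 (ENSMUSG00000074637, chromosome 3, 34650405 to 34652461, a gene of 1 exon) was at 20.5, 26.5 and 31.8 CPM at 0 h, at 1.28, 2.19 and 1.32 CPM at 24 h, and at 1.21, 1.04 and 1.11 CPM at 48 h. All 6 libraries of co-cultured cells were far below the lowest of 0 h, with 22 to 41 counts each, which is above the floor. It was 16.3-fold lower at 24 h (log2 fold change -4.03, SE 0.27, adjusted p = 8.27e-05) and 23.4-fold lower at 48 h (-4.55, SE 0.22, adjusted p = 1.72e-05). From 24 h to 48 h the difference was -0.52 (SE 0.30, adjusted p = 0.254), not past the threshold, although the libraries did not overlap. Sox2 lies inside an intron of the long non-coding gene Sox2ot, on the same strand and with no shared exon base, and Sox2ot held 0 to 5 counts in each library.

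Sox3 (ENSMUSG00000045179, chromosome X, 60891366 to 60893430, also of 1 exon) was at 27.8, 30.1 and 51.7 CPM at 0 h, at 195, 182 and 178 CPM at 24 h, and at 187, 224 and 184 CPM at 48 h. Every library of 24 h and 48 h was above every library of 0 h, and the 24 h and 48 h libraries overlapped. The rise was 5.10-fold at 24 h (log2 fold change 2.35, SE 0.24, adjusted p = 0.000494) and 5.43-fold at 48 h (2.44, SE 0.25, adjusted p = 0.000441), and 96.4% of the log2 change over both days was present at 24 h. From 24 h to 48 h it differed by 0.09 (SE 0.08, adjusted p = 0.467). With per-library offsets for GC content and for the length of the transcript, an alternative added after the data were seen, this last difference was 0.29 and passed the threshold (adjusted p = 0.0238). The transcript of Sox3 has the highest GC content of the 10, at 66.4%.

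The ratio of Sox3 to Sox2, each per kilobase of exon, was 1.35, 1.13 and 1.62 in the 0 h libraries, 152, 82.8 and 134 at 24 h, and 155, 214 and 165 at 48 h. This ratio was looked at after its values were seen, and it was not tested. The sum of both genes per kilobase went from 23.4 to 40.5 at 0 h to 86.8 to 94.9 at 24 h and 89.7 to 109 at 48 h. Sox1, the remaining gene of the SOXB1 group, stayed low, with means of 0.21, 0.33 and 0.20 CPM at the 3 time points in turn.

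Nanog (ENSMUSG00000012396, chromosome 6, 122707489 to 122714633), which encodes a homeodomain factor that steadies the pluripotent state, was near the floor throughout. Its counts were 1, 0 and 3 at 0 h, 1, 0 and 1 at 24 h, and 5, 4 and 0 at 48 h. The 3 groups overlapped, only 2 of the 9 libraries held more than 3 counts, and no fold change is given. At this depth a difference between time points was not detectable. Its longest transcript matches other genes, the pseudogene Nanog-ps1 among them, over 19.7% of its length at 97% identity or more, so that reads could be shared.

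Klf4 (ENSMUSG00000003032, chromosome 4, 55527143 to 55532466), a zinc finger factor, was at 39.9, 57.5 and 57.4 CPM at 0 h, at 58.2, 57.6 and 54.0 CPM at 24 h, and at 57.3, 57.1 and 57.4 CPM at 48 h. Apart from 0 h replicate 1, the 8 libraries lay between 54.0 and 58.2 CPM. The log2 fold changes were 0.15 at 24 h (SE 0.16, adjusted p = 0.561) and 0.15 at 48 h (SE 0.15, adjusted p = 0.514) against 0 h, and 0.01 (SE 0.07, adjusted p = 0.962) between 24 h and 48 h. An interval of 2 standard errors either side ran from -0.16 to 0.46 for 48 h against 0 h and from -0.13 to 0.14 for 48 h against 24 h. Without 0 h replicate 1, both differences from 0 h were within 0.01 of 0, and with the added GC and length offsets the 48 h difference was 0.40 and passed the threshold (adjusted p = 0.0154). Fibroblasts and Sertoli cells express Klf4 too. The summed levels of their markers, given above, were higher at 24 h and 48 h, and their part in the level of Klf4 was not tested.

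Zfp42 (ENSMUSG00000051176, chromosome 8, 43295063 to 43306980) fell moderately, to 1.46-fold below 0 h at 48 h. The libraries were at 23.6, 26.5 and 24.9 CPM at 0 h, at 20.1, 20.2 and 20.2 CPM at 24 h, and at 18.7, 17.3 and 15.3 CPM at 48 h. No library overlapped with those of another time point. The log2 fold change was -0.30 at 24 h (SE 0.11, adjusted p = 0.0885) and -0.55 at 48 h (SE 0.12, adjusted p = 0.0139), of which 54.4% was there at 24 h. Calls of Zfp42 depended on the fit: with all 9 libraries in 1 fit the 24 h difference passed (adjusted p = 0.0478), and the 48 h call was lost without 0 h replicate 2, 48 h replicate 2 or 48 h replicate 3, with adjusted p of 0.0605, 0.0541 and 0.0714. Its longest transcript matches the pseudogene Zfp42-ps1 over 26.9% of its length at 97% identity or more.

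Utf1 (ENSMUSG00000047751, chromosome 7, 139943789 to 139945112) rose on the second day. It was low at each time point, at 2.62, 4.96 and 4.88 CPM at 0 h, 3.44, 3.42 and 3.08 CPM at 24 h, and 8.17, 7.22 and 7.04 CPM at 48 h, with 42 to 166 counts a library. The 0 h and 24 h libraries overlapped, and all 3 of 48 h were above the other 6. From 24 h to 48 h it was 2.24-fold higher (log2 fold change 1.16, SE 0.15, adjusted p = 0.00136), and in all 14 alternatives run for this comparison the call was kept, with fold changes of 1.11 to 1.38. The change from 0 h to 24 h was -0.32 (SE 0.28, adjusted p = 0.471) and that from 0 h to 48 h 0.84 (SE 0.26, adjusted p = 0.046). The latter call was lost with no expression filter (adjusted p = 0.0511) and without 0 h replicate 2 or any 1 of the 48 h libraries, with adjusted p between 0.0709 and 0.148. The second day's change exceeded the first day's by 1.51 (SE 0.42, adjusted p = 0.0428), where 14.0% of all genes were called in this test, and 7 of the 9 fits without 1 library lost that call.

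Of the LIN28 pair, Lin28a fell and Lin28b rose on the second day. Lin28a (ENSMUSG00000050966, chromosome 4, 134003330 to 134018841) was at 155, 196 and 195 CPM at 0 h, at 159, 152 and 151 CPM at 24 h, and at 107, 121 and 97.3 CPM at 48 h. The 0 h and 24 h libraries overlapped, while those of 48 h lay below all others. Its log2 fold change was -0.22 at 24 h (SE 0.12, adjusted p = 0.22), -0.74 at 48 h (SE 0.14, adjusted p = 0.00602) and -0.52 between them (SE 0.08, adjusted p = 0.00288). Without 0 h replicate 1 the 24 h difference was -0.32 and passed the threshold (adjusted p = 0.0368). Gm13061, on the opposite strand, shares 234 bases, 5.86%, of the exons of Lin28a and held 2 to 16 counts a library.

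Lin28b (ENSMUSG00000063804, chromosome 10, 45376620 to 45486395) was at 61.9, 42.1 and 24.4 CPM at 0 h, at 41.6, 44.8 and 43.9 CPM at 24 h, and at 63.1, 60.5 and 62.4 CPM at 48 h. The 0 h libraries were spread widely and overlapped with both other time points, while 24 h and 48 h did not overlap. Against 0 h, the log2 fold change was 0.03 at 24 h (SE 0.30, adjusted p = 0.957) and 0.53 at 48 h (SE 0.30, adjusted p = 0.227). From 24 h to 48 h it rose 1.42-fold (0.50, SE 0.07, adjusted p = 0.00149). This call was lost with all 9 libraries in 1 fit (0.51, adjusted p = 0.295), and with GC and length offsets it was 0.28 (adjusted p = 0.051). The transcript of Lin28b has the lowest GC content of the 10, 40.6%, and its order over the 0 h replicates followed the shift of genes under 45% GC. Without 0 h replicate 1 the difference at 48 h was 0.90 (adjusted p = 0.0155), and without 0 h replicate 3 that at 24 h turned to -0.22.

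Within a library, the log2 ratio of Lin28a to Lin28b counts does not depend on scaling between libraries. The transcripts differ in GC content, 50.1% for Lin28a and 40.6% for Lin28b, and no GC offset was applied to the ratio. A part of the GC shift between the 0 h libraries in it was not tested. The ratio was 1.33, 2.21 and 2.99 at 0 h, 1.93, 1.77 and 1.78 at 24 h, and 0.76, 1.00 and 0.64 at 48 h. All 3 libraries of 48 h were below the other 6, and those of 0 h lay on both sides of those of 24 h. Means were 2.18 ± 0.83 (SD, n = 3), 1.83 ± 0.09 and 0.80 ± 0.19 at the 3 time points in turn, and the spread between them gave p = 0.0286 in an exact permutation test over all 1680 assignments of the 9 libraries. Without any 1 of the 24 h or 48 h libraries the exact p was 0.0679 to 0.125, and without any 1 of the 0 h libraries 0.00357 to 0.05. Lin28a was the more abundant paralog per kilobase of exon in each library, by 3.54-fold to 18.1-fold, and the pair together summed to 45.7 to 53.6 CPM per kilobase at 0 h, 42.7 to 44.4 at 24 h and 31.2 to 37.1 at 48 h.

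**Figure D3:**
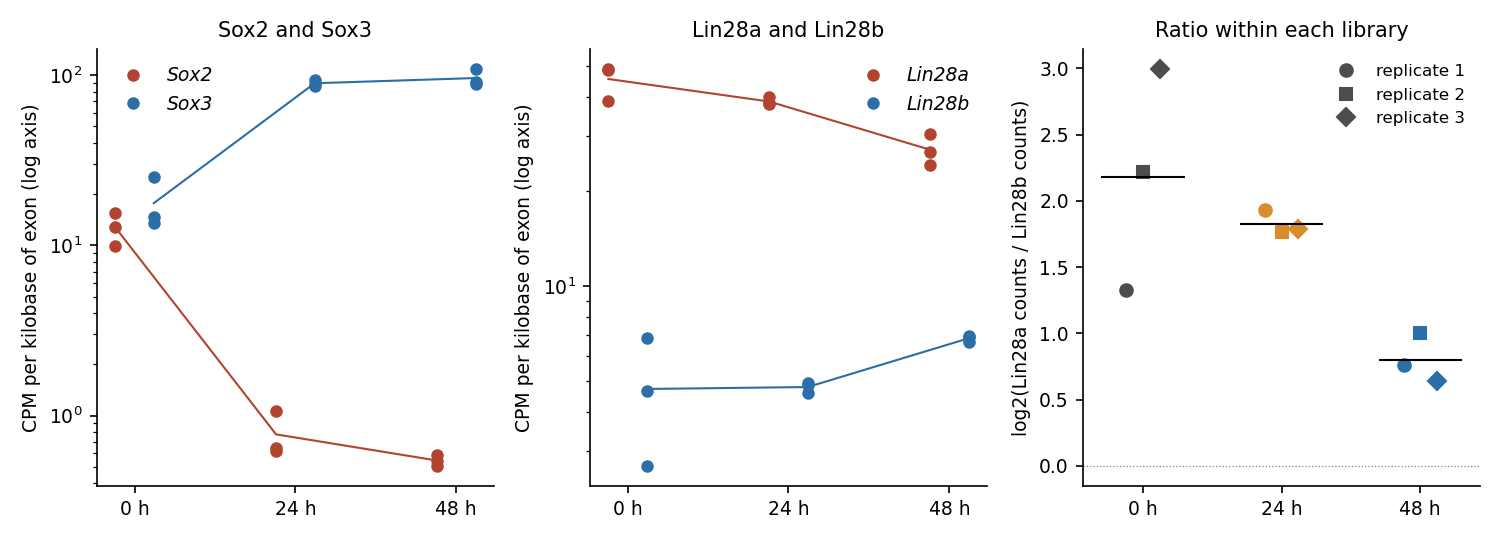
Left and middle, levels in CPM per kilobase of exon (log axis) of Sox2 and Sox3 and of Lin28a and Lin28b in each library, with lines through the means of 3. Right, log2 ratio of Lin28a to Lin28b counts by library, with the mean as a line; the 48 h libraries, at 0.64 to 1.00, are below all others, and those of 0 h range from 1.33 to 2.99.

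The LIN28 genes are themselves targets of let-7, the microRNA family they hold back. Mature let-7a-5p (RefSeq, GRCm38.p6, one of its copies at chr13:48538239-48538260 on the minus strand) is printed with its seed, bases 2 to 8, in capitals, followed by 3 sites in the annotated ends of the longest Lin28a and Lin28b transcripts after the stop codon, with the match to the seed, CTACCTC, in capitals. They show the letters that tie this pair to the pathway.
let-7a-5p: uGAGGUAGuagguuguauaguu
Lin28a, first site: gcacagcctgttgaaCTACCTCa
Lin28a, second site: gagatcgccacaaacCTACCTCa
Lin28b, first site: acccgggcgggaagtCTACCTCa

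Lin28a held 2 such matches in 2775 bases and Lin28b 4 in 4445 bases, and the other 8 members held none. Of 20728 genes with an annotated stretch after the stop codon, 8.85% held at least 1. Among the 16 genes of the let-7 pathway looked at, 7 of 9 targets held a match and 0 of 7 processing and turnover enzymes did. The 9 were listed as let-7 targets beforehand, so that their matches are not a result of these data. The microRNAs themselves were not measured by these poly-A libraries.

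Among the genes around LIN28, those called against 0 h were mostly lower. The 24 h fit called 1 of the 16 higher and 7 lower than 0 h, and the 48 h fit 1 higher and 6 lower, with medians of -0.43 and -0.40 beside 0.01 and 0.02 for all genes. These calls were 50% of the 16 at 24 h and 43.8% at 48 h, where 25.5% and 31.6% of all genes tested were called in either direction. Igf2bp1, which encodes an RNA-binding protein and let-7 target, fell, with means of 560 ± 42.0, 199 ± 13.1 and 209 ± 9.56 CPM (SD, n = 3) at the 3 time points in turn. Its relative Igf2bp2 fell from 78.9 ± 7.64 to 35.7 ± 1.01 and 31.1 ± 1.32 CPM. Drosha, the nuclear enzyme that cuts microRNA precursors, fell from 416 ± 20.2 to 276 ± 24.0 and 236 ± 6.42 CPM, and Arid3b, a DNA-binding factor, from 130 ± 2.12 to 71.7 ± 4.48 and 67.5 ± 3.47 CPM. Between 24 h and 48 h, when Lin28a fell and Lin28b rose, edgeR called 2 of the 16 higher and 0 lower, while 4 were lower at an unadjusted p under 0.05 and DESeq2 called 1 lower. The edgeR calls were 12.5% of the 16, under the 21.3% of all genes called in that comparison.

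Tcl1 (ENSMUSG00000041359, chromosome 12, 105216750 to 105222793) had the largest change of the 10. Its levels were 87.8, 85.8 and 84.9 CPM at 0 h, 1.62, 2.14 and 2.00 CPM at 24 h, and 1.26, 1.30 and 1.77 CPM at 48 h. The 0 h libraries were within 3 CPM of each other, and all later libraries were lower by a wide gap, at 24 to 41 counts. It was 44.4-fold lower at 24 h (log2 fold change -5.47, SE 0.15, adjusted p = 2.68e-06) and 59.5-fold lower at 48 h (-5.89, SE 0.17, adjusted p = 4.58e-06). Between 24 h and 48 h the difference was -0.42 (SE 0.26, adjusted p = 0.273) and the libraries overlapped. No fit run in its 2 comparisons with 0 h lost the call, and the fold change stayed between -6.06 and -5.36.

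The AKT kinases, which TCL1 binds and activates, and their regulators were called higher or not called at 24 h, when Tcl1 was lower. Of 12 genes in this list 7 passed the filter, and the 5 Tcl1b genes, relatives of Tcl1, had mean levels of 0 to 0.24 CPM and did not. At 24 h edgeR called 3 higher and 0 lower, as did DESeq2, and 0 were lower at an unadjusted p under 0.05. The 48 h fit called 3 higher and 1 lower. The called genes were 42.9% of the 7 at 24 h and 57.1% at 48 h, beside 25.5% and 31.6% of all genes. Akt1 rose, with means of 93.0 ± 19.3, 177 ± 4.50 and 160 ± 8.89 CPM (SD, n = 3) in time order. The phosphatase genes Phlpp1 and Phlpp2, whose products switch AKT off, rose as well, Phlpp1 from 25.2 ± 0.70 to 45.4 ± 1.38 and 43.9 ± 3.52 CPM and Phlpp2 from 80.3 ± 13.5 to 112 ± 6.48 and 115 ± 2.10 CPM. The median log2 fold change of the 7 was -0.06 at 24 h and -0.01 at 48 h.

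Sox2, Sox3 and Tcl1 thus moved almost wholly on the first day, with 88.6%, 96.4% and 92.8% of their log2 change over 48 h present at 24 h. The second day's change differed from the first day's by 3.54 (SE 0.46, adjusted p = 0.00106) for Sox2, -2.24 (SE 0.34, adjusted p = 0.00257) for Sox3 and 5.07 (SE 0.28, adjusted p = 9.5e-06) for Tcl1. For Lin28a, 30.0% of the change was present at 24 h, but the second day did not differ from the first past the threshold (-0.27, SE 0.20, adjusted p = 0.446). Lin28b (0.49, SE 0.45, adjusted p = 0.55), Klf4 (-0.12, SE 0.23, adjusted p = 0.81) and Zfp42 (0.08, SE 0.18, adjusted p = 0.844) did not pass either.

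Levels were compared between genes per kilobase of exon, in CPM per kilobase, with the union of a gene's annotated exons as its length. The order depends on that length. Per kilobase of the longest transcript, Pou5f1 was first at 0 h with 63.1, ahead of Tcl1 with 61.6 and Lin28a with 51.9, and at 48 h Pou5f1 (20.5) was above Klf4 (18.9) and Lin28b (11.5) above Zfp42 (9.33). By the union of exons the order was as follows. At 0 h the order was Tcl1 (46.7 ± 0.80, SD, n = 3), Lin28a (45.5 ± 5.75), Pou5f1 (38.2 ± 9.98), Sox3 (17.7 ± 6.39), Klf4 (16.9 ± 3.32), Zfp42 (13.3 ± 0.78), Sox2 (12.8 ± 2.77), Lin28b (4.72 ± 2.07), Utf1 (3.39 ± 1.08) and Nanog (0.03 ± 0.03). The libraries of the first 3 overlapped in this order, as did those of neighbours from Sox3 to Sox2, and of Lin28b and Utf1, so that these neighbours are not told apart. Among 13510 protein-coding genes at 1 CPM or more, Tcl1 stood at percentile 92.2 at 0 h, Lin28a at 91.9 and Pou5f1 at 89.7.

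By 24 h Sox3 led with 89.6 ± 4.18 CPM per kilobase, ahead of Lin28a (38.6 ± 1.05), Pou5f1 (20.7 ± 1.54), Klf4 (18.6 ± 0.74), Zfp42 (10.7 ± 0.03), Lin28b (4.79 ± 0.18), Utf1 (2.70 ± 0.17), Tcl1 (1.04 ± 0.15) and Sox2 (0.78 ± 0.25). Only Tcl1 and Sox2 overlapped among these neighbours. At 48 h Sox3 was at 96.1 ± 10.7, Lin28a at 27.1 ± 3.04, Klf4 at 18.8 ± 0.06, Pou5f1 at 12.4 ± 0.50, Zfp42 at 9.11 ± 0.90, Lin28b at 6.84 ± 0.15, Utf1 at 6.09 ± 0.50, Tcl1 at 0.78 ± 0.15 and Sox2 at 0.54 ± 0.04, with no overlap between neighbours. Among protein-coding genes, Sox3 went from percentile 75.4 at 0 h to 97.7 at 48 h and Tcl1 from 92.2 to 11.5, and Pou5f1 was still at percentile 67.4. The summed level of the 10 genes, in CPM, was 481 to 581 at 0 h, 504 to 525 at 24 h and 453 to 518 at 48 h.

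Other factors of the pluripotent states were read from 2 further lists. Of 19 genes of the naive network, 13 passed the filter, of which the 24 h fit called 3 higher and 4 lower and the 48 h fit 3 higher and 5 lower, with medians of -0.04 and 0.09. That is 53.8% and 61.5% of the 13, beside 25.5% and 31.6% of all genes. Esrrb, an orphan nuclear receptor of this network, fell, with means of 49.1 ± 3.71, 24.4 ± 2.51 and 17.0 ± 1.28 CPM (SD, n = 3) in time order. Dppa4, a chromatin-bound factor, fell from 31.4 ± 1.00 to 16.9 ± 1.40 and 20.5 ± 1.13 CPM. Tfcp2l1, a transcription factor downstream of LIF, rose from 28.3 ± 0.56 to 67.7 ± 5.51 and 58.1 ± 1.98 CPM, and Il6st, which encodes a LIF receptor subunit, from 103 ± 10.9 to 149 ± 2.92 and 173 ± 4.74 CPM. Thus the list held genes that fell, as Sox2 and Tcl1 did, and genes that rose, as Sox3 did.

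Of 12 factors of the primed state, 7 passed the filter beside 0 h. The 24 h fit called 1 of them higher and 5 lower and the 48 h fit 1 higher and 4 lower, with medians of -1.17 and -1.08. These are 85.7% and 71.4% of the 7, against the same shares of all genes. Pou3f1, a POU factor that is also expressed in undifferentiated spermatogonia, fell from 264 ± 96.2 CPM (SD, n = 3) to 116 ± 5.57 and 57.2 ± 4.93. Tcf7l1, a repressor of the WNT pathway, fell from 26.8 ± 6.12 to 12.9 ± 2.15 and 12.7 ± 0.63 CPM, and Nodal, a ligand of the TGF-beta family, from 3.10 ± 0.46 to 0.48 ± 0.32 and 0.46 ± 0.42 CPM. Dnmt3b, a DNA methyltransferase, was the gene called higher, at 144 ± 12.9, 274 ± 7.02 and 185 ± 2.73 CPM.

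**Figure D4:**
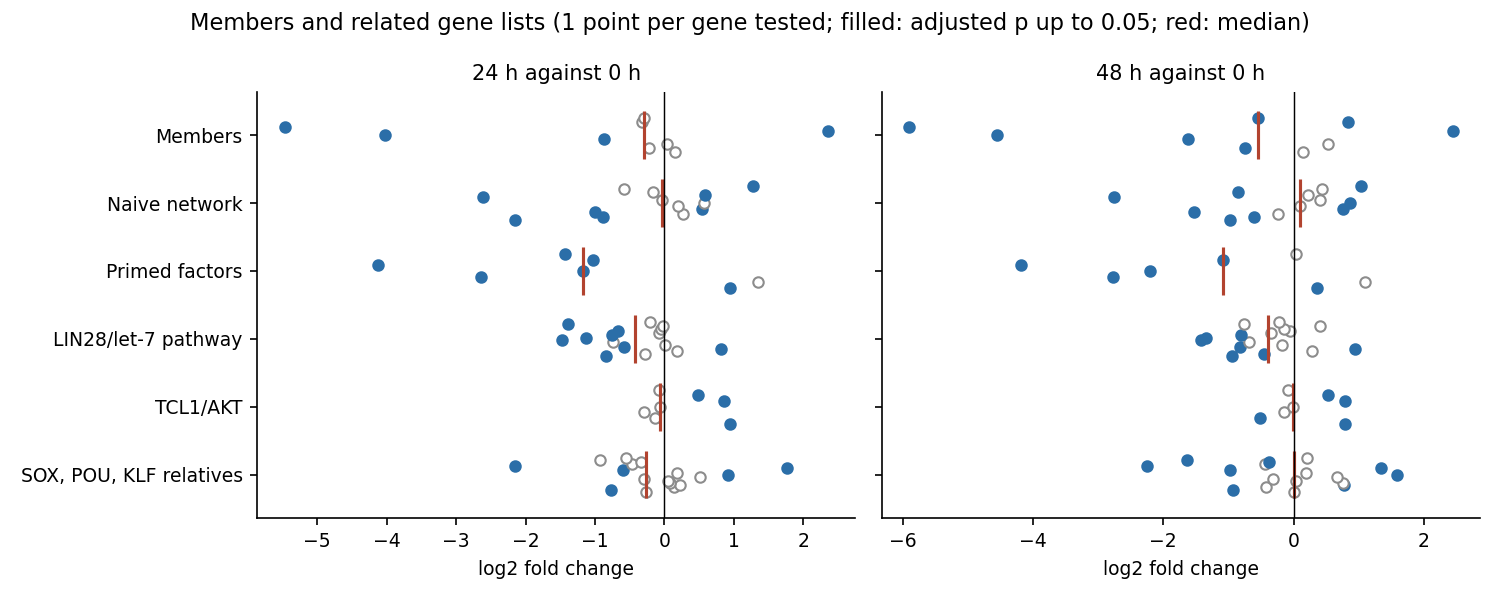
Log2 fold change against 0 h (horizontal axis) at 24 h (left) and 48 h (right) for each gene tested of the 10 members and of 5 related lists. Filled points are called, open points are not, and red lines are medians; Tcl1 and Sox2, at -5.47 and -4.03 on the left, lie beyond nearly every gene of the related lists, the exception on the left being the lowest primed factor at -4.13.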

How the data were processed

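Poly-A RNA of 9 libraries was sequenced on an Illumina NovaSeq instrument, 3 biological replicates at each time point. Per the labels, the deposited values are raw counts of reads per Ensembl gene, and the submitters' processing notes name fastp, HISAT2, featureCounts and GRCm38. Versions, annotation release, strand setting and the handling of reads with several positions are not given in the sources used here, so reads of overlapping or near-identical genes may be shared. Here, symbols and exons came from GENCODE M21 (GRCm38), which held 45229 of 46078 identifiers; the other 849 took at most 0.121% of counts. Replicate pairs differed by more than sampling noise (chi-square over its degrees of freedom of 7.13 to 81.4), so each library was 1 replicate.

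Pairs of groups were tested in fits of 6 libraries with edgeR 4.0.16 (R 4.3.3; filterByExpr, TMM, quasi-likelihood test, two-sided, Benjamini-Hochberg adjustment), and the second day against the first in a fit of 9. The SE of a fold change was derived from that test, as the absolute log2 fold change over the square root of the F statistic. The ratio of Lin28a to Lin28b used a prior count of 0.5 and an exact permutation test. The alternatives were DESeq2 1.42.0, other scalings and filters, 1 shared fit, a replicate block, each library left out and, added after seeing the data, offsets for GC content and length. The scripts were tested on simulated data. Shared sequence was found with BLAST 2.17.0 (at least 75 bases at 97% identity), and figures were drawn with matplotlib 3.10.9. The members and lists were chosen with earlier results of these data known. Every member is named. Up to 4 genes of each other list are named, those called in both comparisons with 0 h that have the highest mean CPM, or, with fewer than 2 called, the 2 highest by mean CPM. Genes that share exons or sequence with a member are named beside it. Sox1, Sox4, the Tcl1b genes, Dazl, Ddx4, Mael, Tdrd1, Sohlh2 and Dmrtb1 were named after their values were seen.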

Additional observations from a re-analysis of the deposited data

How the results depend on the processing

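The numbers of members called kept within 1.5 times the reported ones under all alternatives run: 3 to 5 for 24 h against 0 h, 5 to 8 for 48 h against 0 h, 3 or 4 for 48 h against 24 h, and 3 to 5 for the second day against the first. The labels do not say whether replicate numbers pair the samples. Deviations of same-numbered libraries correlated between -0.28 and 0.20, and not every library correlated best with its own number. The GC shift between the 0 h libraries enters these correlations, so that they cannot settle the pairing. With the replicate number as a block, 5 of 9 members were called at 48 h against 0 h, Zfp42 (adjusted p = 0.0544) and Utf1 (0.0856) being lost, 4 in each of the other 2 comparisons of groups, and 3 for the second day against the first, where Utf1 was lost (0.0928). The ratio of Lin28a to Lin28b fell by 1.38 on the log2 scale from 0 h to 48 h, and by 1.38 with a prior count of 2. Without 1 library the change was -1.80 to -0.97, with exact p of 0.00357 to 0.125, and the 6 fits without a 24 h or 48 h library did not pass the threshold.

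Signs turned only for differences that were not called in the reported fits: Klf4 from 24 h to 48 h with library size alone (-0.0011), Zfp42 for the second day against the first with library size alone (-0.067), and, over the fits without 1 library, Klf4 at 24 h (-0.0041 to 0.26) and 48 h (-0.0039 to 0.26) against 0 h, Klf4 (-0.011 to 0.026) and Sox3 (-0.0047 to 0.15) from 24 h to 48 h, Lin28b at 24 h (-0.22 to 0.40), and Pou5f1 (-0.049 to 0.34), Klf4 (-0.26 to 0.038) and Zfp42 (-0.044 to 0.12) for the second day against the first. Lin28b for the second day against the first passed without 0 h replicate 3 (0.75, adjusted p = 0.0414), and Utf1 in that test did not with library size alone (1.36, adjusted p = 0.0583). The cause was not tested. Library size alone raised the median of all genes by 0.11 at 24 h and 48 h against 0 h and moved the share of calls that were higher from 44.5% to 57.1% and from 41.2% to 52.8%. Over all genes, the fit of 9 libraries called 1043 genes for 48 h against 24 h, in place of 3732. The depth leaves Nanog at the floor, where no difference could be seen.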

Other observations

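Relatives of the members by family were called about as often as all genes at 24 h. Of 18 other SOX, POU and KLF genes, 17 passed the filter, of which the 24 h fit called 2 higher and 3 lower than 0 h and the 48 h fit 3 higher and 5 lower. These are 29.4% and 47.1% of the 17, beside 25.5% and 31.6% of all genes tested. Sox13 fell, with means of 186 ± 20.2, 41.3 ± 2.54 and 39.0 ± 2.76 CPM (SD, n = 3) in time order, Sox11 from 84.6 ± 12.2 to 55.4 ± 4.23 and 43.1 ± 2.04, and Klf13 from 104 ± 6.64 to 60.5 ± 3.17 and 54.4 ± 5.47. Sox12, which belongs with Sox11 to the SOXC group, rose from 57.7 ± 12.4 to 195 ± 21.3 and 147 ± 11.9 CPM. Sox4, also of the SOXC group, was not called at 24 h (log2 fold change -0.34, SE 0.12, adjusted p = 0.0809). It was called lower at 48 h (-0.38, SE 0.11, adjusted p = 0.0371). Within SOXC, as within SOXB1, genes went in both directions.

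Of the 6 markers of differentiating spermatogonia, 4 were called higher than 0 h at both later time points. That is 66.7% of the 6, beside 11.4% of all genes called higher at 24 h and 13.0% at 48 h. Sohlh2 and Dmrtb1 were not called against 0 h. From 24 h to 48 h, 1 of the 6 was called higher and 4 lower, 83.3%, beside 21.3% of all genes. Stra8 was at 2.58 ± 0.60, 913 ± 55.8 and 485 ± 23.4 CPM (SD, n = 3) in time order, and Kit at 8.48 ± 1.26, 568 ± 34.6 and 330 ± 7.67 CPM. Of the 10 germ cell markers, the 24 h fit called 0 higher and 3 lower than 0 h, and the 48 h fit 1 higher and 5 lower. These were 30% and 60% of the 10, beside 25.5% and 31.6% of all genes tested. Among those called lower, Etv5 fell from 524 ± 37.0 to 11.3 ± 1.01 and 7.78 ± 0.45 CPM and Gfra1 from 230 ± 10.6 to 36.4 ± 2.21 and 18.0 ± 1.58 CPM. The 4 endothelial markers summed to 43.3 to 47.3 CPM at 0 h and 12.2 to 18.7 CPM later, and the 4 macrophage markers to 15.3 to 16.8 and 5.50 to 9.48 CPM. The single markers did not all follow these sums: Pecam1 and Kdr were called lower at both later time points and Tek higher (log2 fold change 1.31 and 1.53), and Cd68 was called lower at both and Csf1r higher at 24 h (1.90).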
